A study of Homo sapiens with 15 samples.

Results

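The mRNAs of 8 genes of the AKT and PI3 kinase pathway were followed in K562 cells that had lost HSP90α, had lost HSP90β or had become resistant to the HSP90 inhibitor PU-H71. The genes were chosen by name: the catalytic subunits of the class I PI3 kinases (PIK3CA, PIK3CB, PIK3CD and PIK3CG), the regulatory subunit PIK3R1, the activating kinase PDPK1, and the kinases AKT1 and AKT2. They are 8 of the 17769 genes measured in the knockout libraries and of the 60510 measured in the resistance libraries, and all 8 were expressed above the threshold for testing in every comparison. K562 is a BCR-ABL1+ chronic myeloid leukemia cell line. The knockout experiment held 3 libraries of each line, HSP90α-KO, HSP90β-KO and the wild-type control with an empty vector (EV). The labels describe the lines as carrying Cas9 and a guide RNA from lentivirus, sorted on a fluorescent marker and selected as single clones, in 1 wording for all samples. The study's methods describe Cas9-expressing K562 cells, made by transduction and puromycin selection, that received the guide RNA and were sorted. They name a clone of each knockout for the protein measurements, not for the RNA libraries. EV is an empty vector, and these cells were otherwise untreated. The resistance experiment held 3 libraries of PUHr cells, which were cultured for a long time in rising amounts of PU-H71 and picked as clones, and 3 of a parental clone kept in the solvent DMSO in parallel. How many clones stand behind a group is not given. Where a group is 1 clone, the effect of a knockout or of resistance and that of the clone cannot be told apart. The study calls the replicates independent without saying that they were separate cultures, so the p-values measure the spread between these libraries, part of which may be technical.

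Class I PI3 kinases phosphorylate the membrane lipid PIP2 to PIP3. PIP3 recruits AKT and PDK1, the product of PDPK1, to the membrane, where PDK1 phosphorylates and activates AKT. AKT then acts on mTOR, GSK3 and the FOXO factors, and phosphatases such as SHIP1 act on PIP3 again. In chronic myeloid leukemia BCR-ABL1 feeds this pathway through adaptor proteins such as GAB2 and CRKL. AKT and PDK1 are known as proteins that depend on HSP90, and the values here are of mRNA, not of protein or kinase activity.

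Libraries held between 19594381 and 26216730 reads on genes, and a member received between 524 reads (PIK3R1) and 4855 reads (AKT2) in a library. Levels are given as CPM, read counts scaled by the authors to library size. This scaling differs from the plain total of reads, since the CPM of a library sum to 97.2% to 103.1% of what the total would give, with HSP90α-KO (101.5% to 103.1%) above EV (from 99.3%) and HSP90β-KO (97.8% to 98.0%) below it. Differences are log2 fold changes of the deposited log2 CPM, compared with limma and adjusted by Benjamini-Hochberg over all tested genes, with a call at an adjusted p under 0.05. The targeted genes were checked first. HSP90AA1, the gene of HSP90α, was at 90.44 ± 2.34 CPM in HSP90α-KO and 704 ± 18.7 in EV (SD, n = 3). HSP90AB1, the gene of HSP90β, was at 1913 ± 25.1 CPM in HSP90β-KO and 2806 ± 21.1 in EV (SD, n = 3). The 9 erythroid markers of K562 were above 1 CPM in each group. Their summed level ranged from 867 to 877 CPM in EV, 788 to 811 in HSP90α-KO, 766 to 788 in HSP90β-KO, 2700 to 2740 in parental cells and 1960 to 2060 in PUHr. Of 8 markers of other cell types, 6 were measured in the knockout and 8 in the resistance libraries. Their summed level ranged from 76.3 to 80.5 CPM in EV, 75.0 to 77.5 in HSP90α-KO, 82.3 to 88.2 in HSP90β-KO, 92.1 to 94.6 in parental cells and 41.4 to 42.9 in PUHr. EPCAM was the highest, at 27.0 to 76.6 CPM by group, and MS4A1, measured in the resistance libraries, had 0 reads. The T cell marker CD3D was at 4.76 ± 0.267 CPM in EV, 3.54 ± 0.457 in HSP90α-KO and 11.5 ± 0.419 in HSP90β-KO, and CD3E at 3.37 ± 0.239, 0.437 ± 0.245 and 4.83 ± 0.686 (SD, n = 3). The part of these marker differences in the results was not tested.

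The largest changes among the 8 genes were those of PIK3CD in HSP90α-KO and of AKT1 in HSP90β-KO. The start regions of these genes are therefore printed, in windows of 300 bases that lie mostly upstream of a RefSeq start (GRCh38.p14), 5′ to 3′ on the strand of the gene. PIK3CD has 3 such RefSeq windows, and counts per gene do not show which start was used. The GENCODE gene begins upstream of all of them, at chr1:9629889, and that region is not printed. Capitals mark matches on either strand to GGGCGG, the GC box read by SP1-type factors, to GAANNTTC, the core of a heat shock element, to GTAAACA, a FOXO motif, or to AGATAA, which erythroid GATA factors bind.
PIK3CD, chr1:9651481-9651780, plus strand: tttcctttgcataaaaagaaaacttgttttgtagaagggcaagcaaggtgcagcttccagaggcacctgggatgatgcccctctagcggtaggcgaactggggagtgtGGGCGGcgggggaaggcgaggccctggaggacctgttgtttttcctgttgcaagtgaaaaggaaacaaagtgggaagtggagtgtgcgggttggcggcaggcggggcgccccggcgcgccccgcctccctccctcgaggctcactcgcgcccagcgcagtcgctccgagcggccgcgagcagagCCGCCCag
PIK3CD, chr1:9689294-9689593, plus strand: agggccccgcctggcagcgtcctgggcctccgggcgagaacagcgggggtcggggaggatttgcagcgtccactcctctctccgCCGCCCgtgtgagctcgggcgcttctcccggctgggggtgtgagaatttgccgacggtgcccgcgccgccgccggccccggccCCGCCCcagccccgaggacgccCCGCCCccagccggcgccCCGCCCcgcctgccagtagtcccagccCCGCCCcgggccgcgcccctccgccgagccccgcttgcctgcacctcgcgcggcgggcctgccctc
PIK3CD, chr1:9691217-9691516, plus strand: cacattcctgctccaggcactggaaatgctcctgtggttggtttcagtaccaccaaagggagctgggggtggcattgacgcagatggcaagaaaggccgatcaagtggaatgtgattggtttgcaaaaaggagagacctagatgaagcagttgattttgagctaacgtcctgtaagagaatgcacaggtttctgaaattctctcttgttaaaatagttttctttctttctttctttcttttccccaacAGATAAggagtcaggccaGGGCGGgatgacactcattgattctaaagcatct
AKT1, chr14:104795699-104795998, minus strand: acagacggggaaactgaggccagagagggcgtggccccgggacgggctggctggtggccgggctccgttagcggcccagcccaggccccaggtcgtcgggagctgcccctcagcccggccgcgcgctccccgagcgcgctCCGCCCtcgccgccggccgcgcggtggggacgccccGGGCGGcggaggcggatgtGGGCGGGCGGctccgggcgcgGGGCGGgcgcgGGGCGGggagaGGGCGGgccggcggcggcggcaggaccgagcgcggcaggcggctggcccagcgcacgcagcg

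In these windows the AKT1 start held 7 GC boxes at a GC content of 83.3%. A second AKT1 window (chr14:104793552-104793851), not printed, held 1 at 56.7% GC. The printed PIK3CD windows held 2, 5 and 1, at 63.3%, 80.0% and 45.0% GC, and the third also held a GATA motif. None of these windows held the heat shock or FOXO letters, which says only that these letters are not there. Over the 16 RefSeq windows of the 8 genes, 12 held GGGCGG, 1 held GAANNTTC, 1 held GTAAACA and 3 held AGATAA. Among all 35116 windows of the same length the shares were 45.0%, 6.77%, 3.42% and 10.3%. PIK3CG has 1 window (chr7:106865229-106865528), with 41.7% GC, no GC box and a GATA motif. A match is a description of the sequence, not a measured binding site.

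PIK3CD (ENSG00000171608, GRCh38 chr1:9629889-9729114, plus strand) encodes p110δ, the leukocyte catalytic subunit. It was at 76.9, 72.5 and 70.7 CPM in the HSP90α-KO libraries and at 30.6, 29.8 and 30.4 in EV. The 3 HSP90β-KO libraries had 25.6, 28.2 and 26.3 CPM. All HSP90α-KO libraries lay far above the other 6, and the HSP90β-KO libraries lay just below EV. PIK3CD rose by 1.27 on the log2 scale in HSP90α-KO (standard error 0.049, adjusted p = 8.4e-18), a 2.42-fold higher level, and was the only member beyond a log2 fold change of 1 there. In HSP90β-KO it fell by 0.18 (adjusted p = 0.005). The PUHr libraries were at 26.6, 25.6 and 25.0 CPM and the parental ones at 31.4, 35.5 and 32.1, so PIK3CD also fell in PUHr, by 0.36 (standard error 0.054, adjusted p = 6.2e-05). PIK3CD-AS2, an antisense gene at the same locus, was at 10.4 to 12.3 CPM in HSP90α-KO and 12.8 to 13.9 in EV. The kit keeps the strand, but whether the counting used it is not stated.

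PIK3CB (ENSG00000051382, chr3:138652698-138834928, minus strand) encodes p110β, a broadly expressed catalytic subunit that also takes signals from G protein-coupled receptors. The HSP90α-KO libraries held 96.8, 96.5 and 103 CPM, above 69.4, 67.8 and 71.5 in EV. It rose by 0.50 in HSP90α-KO (standard error 0.038, adjusted p = 1.5e-11). In HSP90β-KO its libraries, at 63.9, 65.1 and 65.0 CPM, lay slightly below EV, a fall by 0.10 (adjusted p = 0.036). That call was lost when EV replicate 1 or 3 or any HSP90β-KO library was left out (adjusted p up to 0.16), and when scaled to the total reads. In PUHr it fell by 0.25 (adjusted p = 2.3e-05), from 87.88 ± 1.84 to 74.1 ± 2.17 CPM (SD, n = 3).

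PIK3CA (ENSG00000121879, chr3:179148114-179240093, plus strand) encodes p110α, the subunit used by most receptor tyrosine kinases. Its level was 42.6, 44.8 and 49.2 CPM in HSP90α-KO against 36.1, 32.3 and 35.7 in EV, a rise by 0.39 (standard error 0.055, adjusted p = 1.3e-06). In HSP90β-KO it was at 36.6, 34.1 and 35.8 CPM, which overlaps EV, with a log2 fold change of 0.03 (95% interval -0.08 to 0.15, adjusted p = 0.7). The PUHr libraries held 61.3, 59.2 and 61.9 CPM, all above 43.7, 45.3 and 43.9 in parental cells. This rise by 0.46 (standard error 0.037, adjusted p = 9.3e-08) was the largest of the members in PUHr. PIK3CA and PIK3R1 were the members that rose in PUHr, while PIK3CB, PIK3CD and PIK3CG fell.

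PIK3CG (ENSG00000105851, chr7:106865278-106908980, plus strand) encodes p110γ, the subunit driven by G protein-coupled receptors in blood cells. It was at 123, 116 and 114 CPM in HSP90α-KO and at 104, 104 and 107 in EV, a rise by 0.17 (adjusted p = 0.00027). The HSP90β-KO libraries, at 103, 104 and 104 CPM, overlapped EV (log2 fold change -0.02, adjusted p = 0.78). In PUHr it fell by 0.43 (standard error 0.04, adjusted p = 4e-07), to 31.9, 33.2 and 32.3 CPM from 43.9, 44 and 43.6. The control lines of the experiments also stood apart for this gene, at 104.9 ± 1.42 CPM in EV and 43.8 ± 0.204 in parental cells (SD, n = 3). Those libraries were normalized separately and were not tested against each other.

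**Figure D1:**
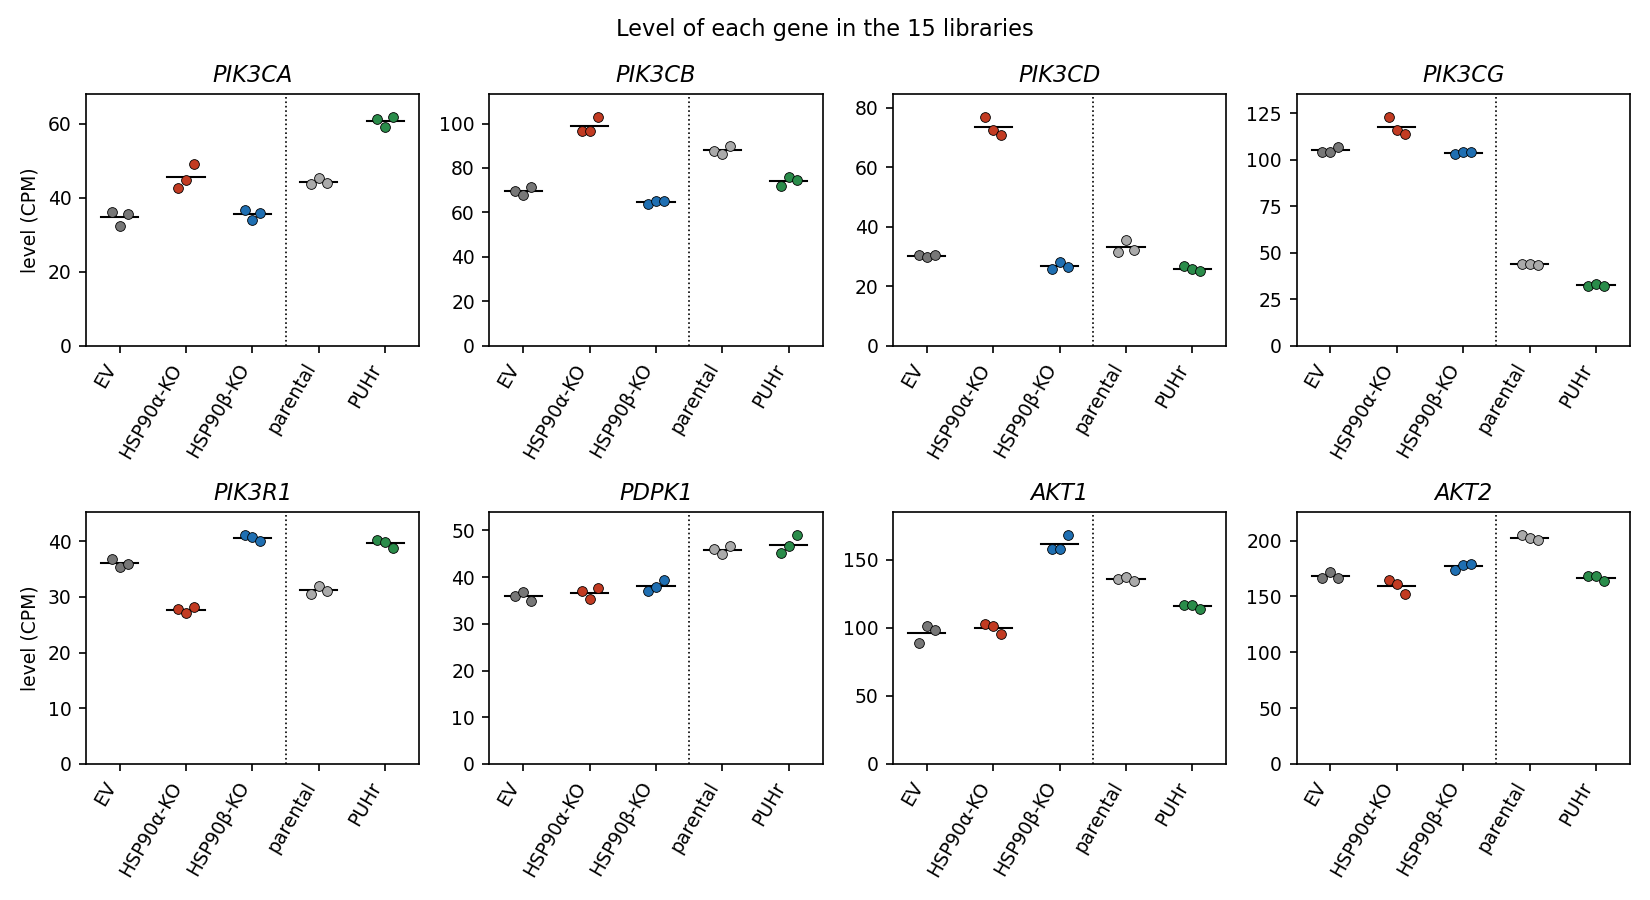
Level of each of the 8 genes in CPM (vertical axis, from 0) in every library of the 5 groups (points) with the group mean (line). The dotted line separates the knockout from the resistance libraries, which were normalized separately. PIK3CD stands apart in HSP90α-KO (70.7 to 76.9 CPM) and AKT1 in HSP90β-KO (158 to 168 CPM).

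PIK3R1 (ENSG00000145675, chr5:68215740-68301821, plus strand) encodes p85α and its shorter forms, which stabilize the class IA catalytic subunits and hold them inactive until a receptor is engaged. In HSP90α-KO, where all 4 catalytic subunits rose, it was at 27.9, 27.1 and 28.2 CPM, below 36.8, 35.3 and 36.0 in EV, and fell by 0.37 (standard error 0.047, adjusted p = 1.4e-07). In HSP90β-KO, at 41.1, 40.7 and 40.1 CPM, it rose by 0.17 (adjusted p = 0.0047). PUHr held 40.2, 39.9 and 38.8 CPM and parental cells 30.6, 31.9 and 31.1, a rise by 0.35 (standard error 0.042, adjusted p = 7.1e-06).

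PDPK1 (ENSG00000140992, chr16:2537979-2603188, plus strand) passed the test in none of the comparisons, although scaled to the total reads it was lower in HSP90α-KO than in HSP90β-KO (adjusted p = 0.033). It was at 36.67 ± 1.11 CPM in HSP90α-KO, 38.05 ± 1.24 in HSP90β-KO and 35.87 ± 0.951 in EV (SD, n = 3). The 95% intervals of its log2 fold change were -0.07 to 0.13 in HSP90α-KO, -0.01 to 0.18 in HSP90β-KO and -0.06 to 0.12 in PUHr. Its reads are the least certain of the 8 genes. Of the 76-base stretches of its transcripts, 47.8% also occur in transcripts of other genes, against 20.1% for PIK3CA (mostly with KCNMB3), 4.59% for AKT1 and at most 1.08% for the other members. The largest part of the PDPK1 overlap, 23.4%, was with ENSG00000290728, whose level was not analysed here, so how many PDPK1 reads are affected is not known. PDPK2P, a pseudogene of PDPK1, received between 9 and 20 reads per library.

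AKT1 (ENSG00000142208, chr14:104769349-104795751, minus strand), the AKT isoform tied to growth and survival, was at 158, 158 and 168 CPM in HSP90β-KO. The EV libraries held 88.7, 101 and 98.2 CPM and the HSP90α-KO libraries 103, 101 and 95.6. HSP90β-KO lay above all other knockout libraries, while HSP90α-KO and EV overlapped. AKT1 rose by 0.75 in HSP90β-KO (standard error 0.043, adjusted p = 1.6e-13), a 1.68-fold higher level. In HSP90α-KO its log2 fold change was 0.06 (95% interval -0.03 to 0.15, adjusted p = 0.25). PUHr cells, at 117, 117 and 114 CPM, were below parental cells at 136, 137 and 134, a fall by 0.22 (standard error 0.027, adjusted p = 7e-06).

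AKT2 (ENSG00000105221, chr19:40230317-40285536, minus strand), the isoform tied to insulin signalling and glucose uptake, was at 165, 161 and 152 CPM in HSP90α-KO and 167, 172 and 167 in EV. This small fall by 0.08 had an adjusted p of 0.035, which rose to as much as 0.2 when any EV library or HSP90α-KO replicate 3 was left out. HSP90β-KO libraries held 174, 178 and 179 CPM, just above EV, and did not pass the test (log2 fold change 0.07, adjusted p = 0.11), but did when scaled to the total reads (0.10, adjusted p = 0.028). In PUHr AKT2 fell by 0.28 (standard error 0.025, adjusted p = 2.5e-07), to 168, 168 and 164 CPM from 205, 202 and 201. By western blot the study reports higher total AKT protein in PUHr, and higher pan-AKT protein in HSP90α-KO and HSP90β-KO. The relation of those protein levels to the mRNA of AKT1 and AKT2 was not tested.

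In HSP90α-KO against EV 4 of the 8 genes rose and 2 fell, where 27.5% of all tested genes rose, 26.6% fell and 10.3% were beyond a log2 fold change of 1. In HSP90β-KO 2 rose and 2 fell, against 17.2% of all genes in either direction, and no member was beyond a log2 fold change of 1, against 4.48% of all genes. In PUHr 2 rose, 5 fell and none was beyond that fold, against 25.6%, 25.8% and 10.1%. The median log2 fold changes of the members were 0.11, 0.05 and -0.24, beside -0.01, 0.00 and 0.00 over all genes.

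**Figure D2:**
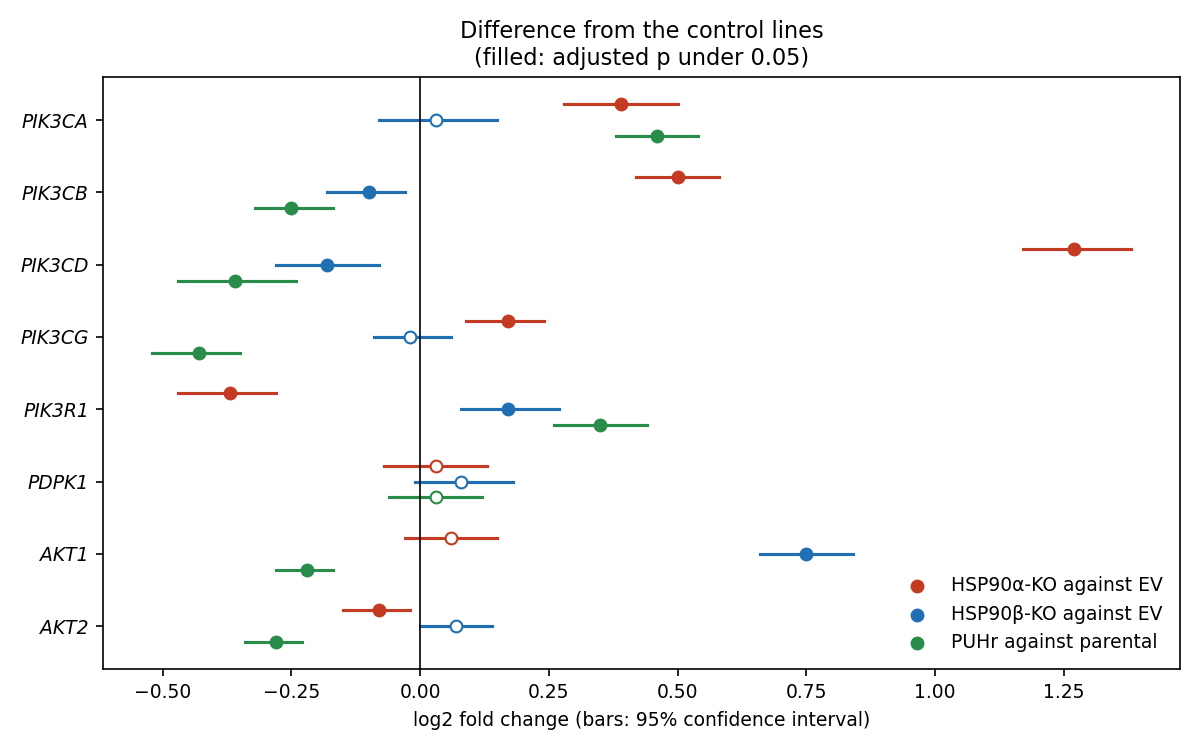
Log2 fold change of each gene (horizontal axis) in HSP90α-KO and HSP90β-KO against EV and in PUHr against parental cells, with 95% confidence intervals from limma. Filled points passed an adjusted p of 0.05. PIK3CD in HSP90α-KO (1.27) and AKT1 in HSP90β-KO (0.75) are the farthest from 0.

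The knockouts were also compared directly. PIK3CD was 2.74-fold higher in HSP90α-KO than in HSP90β-KO (log2 difference 1.45, standard error 0.049, adjusted p = 2.8e-19). PIK3CB was higher by 0.61 (adjusted p = 2.1e-13), PIK3CA by 0.36 (adjusted p = 3.7e-06) and PIK3CG by 0.18 (adjusted p = 8.2e-05), so that the 4 catalytic subunits were all higher in HSP90α-KO. AKT1 was lower in HSP90α-KO (log2 difference -0.69, adjusted p = 1.7e-13), as were PIK3R1 (-0.55, adjusted p = 9.6e-11) and AKT2 (-0.16, adjusted p = 0.00026). PDPK1 differed by -0.05 (95% interval -0.15 to 0.04). These are 4 genes higher and 3 lower, with 1 beyond a log2 fold change of 1, where 30.1%, 29.8% and 12.7% of all genes were called.

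Levels of different genes were compared per kb of the canonical transcript. In EV AKT1 stood at 32.5 ± 2.24 and AKT2 at 32.1 ± 0.522 CPM per kb (SD, n = 3), and their libraries overlapped. PIK3CG followed at 14.9, PIK3CB at 11.1, PIK3CD at 5.59, PIK3R1 at 5.16, PDPK1 at 4.99 and PIK3CA at 3.75 CPM per kb. PIK3R1 and PDPK1 were the other neighbours in this order that overlapped. In HSP90α-KO PIK3CD reached 13.6 CPM per kb, below PIK3CB at 15.8 and PIK3CG at 16.7, whose libraries overlapped. In PUHr PIK3CG was the lowest member, at 4.60 CPM per kb, overlapping PIK3CD at 4.75. The order depended on the length used. Per kb of all annotated exons PIK3CG was the highest member in EV, at 13.5, with AKT2 at 10.6 and AKT1 at 8.77.

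The shares of the 4 catalytic subunits in their summed CPM per kb do not depend on the scaling of a library. PIK3CD made up 26.6% ± 0.928 in HSP90α-KO, 15.8% ± 0.19 in EV and 14.6% ± 0.632 in HSP90β-KO (SD, n = 3). The PIK3CG share was lower, at 32.8% ± 0.987 in HSP90α-KO and 42.1% ± 0.584 in EV (SD, n = 3), although its own level was higher there (117.8 and 104.9 CPM), and PIK3CB stayed between 29.9% and 32.2% in all 9 knockout libraries. PIK3CA took 23.7% ± 0.671 in PUHr and 15.4% ± 0.173 in parental cells (SD, n = 3). AKT1 made up 61.8% ± 0.589 of AKT1 plus AKT2 in HSP90β-KO, 52.8% ± 0.0531 in HSP90α-KO and 50.3% ± 1.56 in EV (SD, n = 3). PIK3CA, PIK3CB and PIK3CD together stood at 8.60 ± 0.0425 times PIK3R1 in HSP90α-KO, 3.96 ± 0.0783 in EV and 3.28 ± 0.0642 in HSP90β-KO (SD, n = 3). The ratio was 4.08 ± 0.0931 in PUHr and 5.57 ± 0.0536 in parental cells (SD, n = 3). Each of these differences between groups separated all libraries, with an exact two-sided permutation p of 0.1, the smallest that 3 libraries against 3 can give (0.12 after adjustment over 24 comparisons). Per kb of all annotated exons the PIK3CD shares were 20.1%, 11.5% and 10.5%, in the same order. The ratio to PIK3R1 then stood at 13.5 in HSP90α-KO, 6.37 in EV, 5.27 in HSP90β-KO, 6.46 in PUHr and 9.02 in parental cells, so that its size, but not its order between compared groups, depends on the length used. The ratio leaves out the other class IA regulatory genes. PIK3R3 rose by 0.31 in HSP90α-KO (limma adjusted p = 0.032), with libraries overlapping EV, and PIK3R2 was not measured in the knockout libraries.

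**Figure D3:**
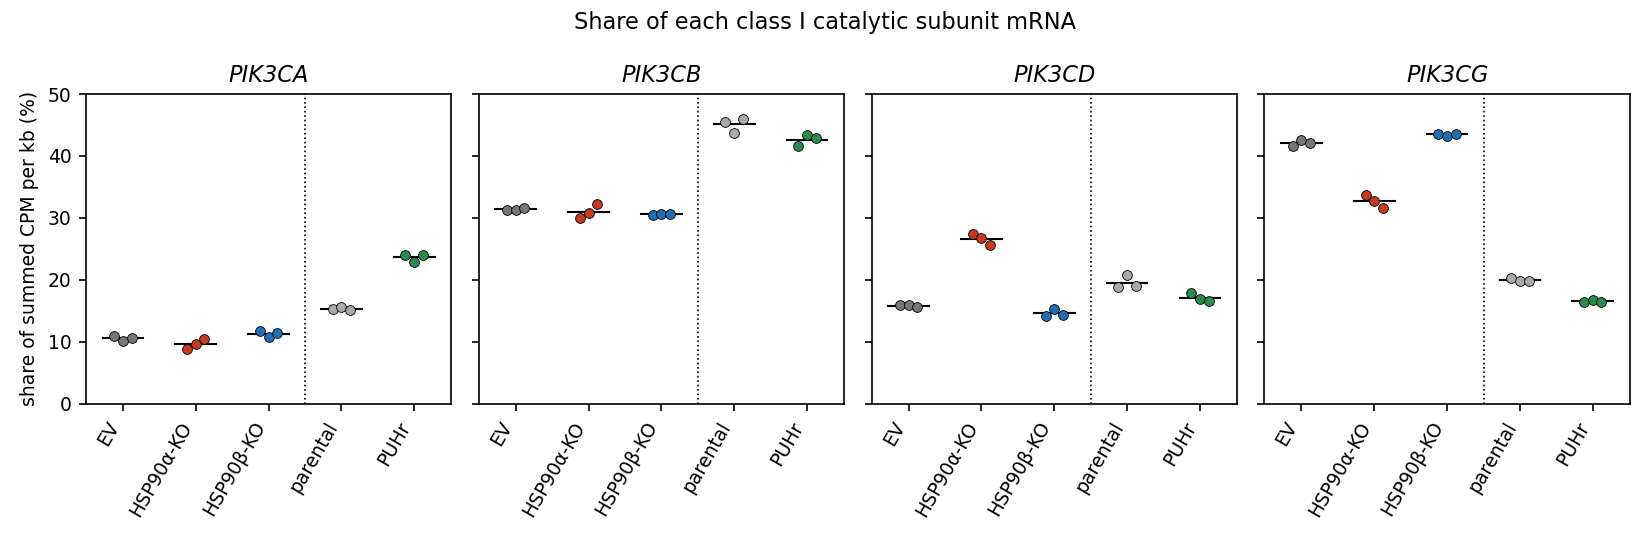
Share of each class I catalytic subunit in the summed CPM per kb of the 4 subunits (vertical axis, percent) in every library (points) with the group mean (line). The dotted line separates the knockout from the resistance libraries. PIK3CD takes 25.6% to 27.5% in HSP90α-KO and a mean of 15.8% in EV.

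Each gene was then set beside the tested genes within 2 Mb. For the 44 genes around AKT1 the middle log2 fold change in HSP90β-KO was 0.64, with 35 higher and 0 lower by the test, and 13 of them rose more than AKT1 with its 0.75. Over the last 15 Mb of chromosome 14, with 104 genes, the median was 0.47, with 57 higher and 12 lower. HSP90AA1, which lies in this stretch, rose by 0.78 in HSP90β-KO (limma adjusted p = 2.1e-17). The study's SNP array showed no alteration at the HSP90AA1 locus in HSP90β-KO. In HSP90α-KO the same 44 genes had a median of -0.02. The part of this stretch of chromosome 14 in the rise of AKT1 was not tested. In PUHr AKT1 went against its neighbours, falling by 0.22 where 42 of them had a median of 0.22, with 22 higher and 4 lower. The last 15 Mb of the chromosome had a median of 0.18 there over 98 genes, with 42 higher and 18 lower. Of the 42 neighbours, 37 had a higher log2 fold change than AKT1.

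PIK3CD showed the opposite arrangement. Its 43 neighbours had a median of 0.03 in HSP90α-KO, and only 1 of them, GPR157, had a larger log2 fold change than the 1.27 of PIK3CD (GPR157 was named after its value was seen). In PUHr its 40 neighbours had a median of -0.40, with 3 higher and 27 lower, close to the -0.36 of PIK3CD. One of these neighbours was MTOR, the kinase at the end of the pathway, which fell by 0.57 in PUHr (adjusted p = 2e-10). PIK3CB fell by 0.25 in PUHr while its 23 neighbours had a median of 0.23. PIK3CA (16 neighbours, median 0.00), PIK3CG (35, 0.01) and PIK3R1 (15, -0.08) changed in PUHr with neighbours near 0. AKT2 fell among 100 neighbours with a median of -0.16.

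**Figure D4:**
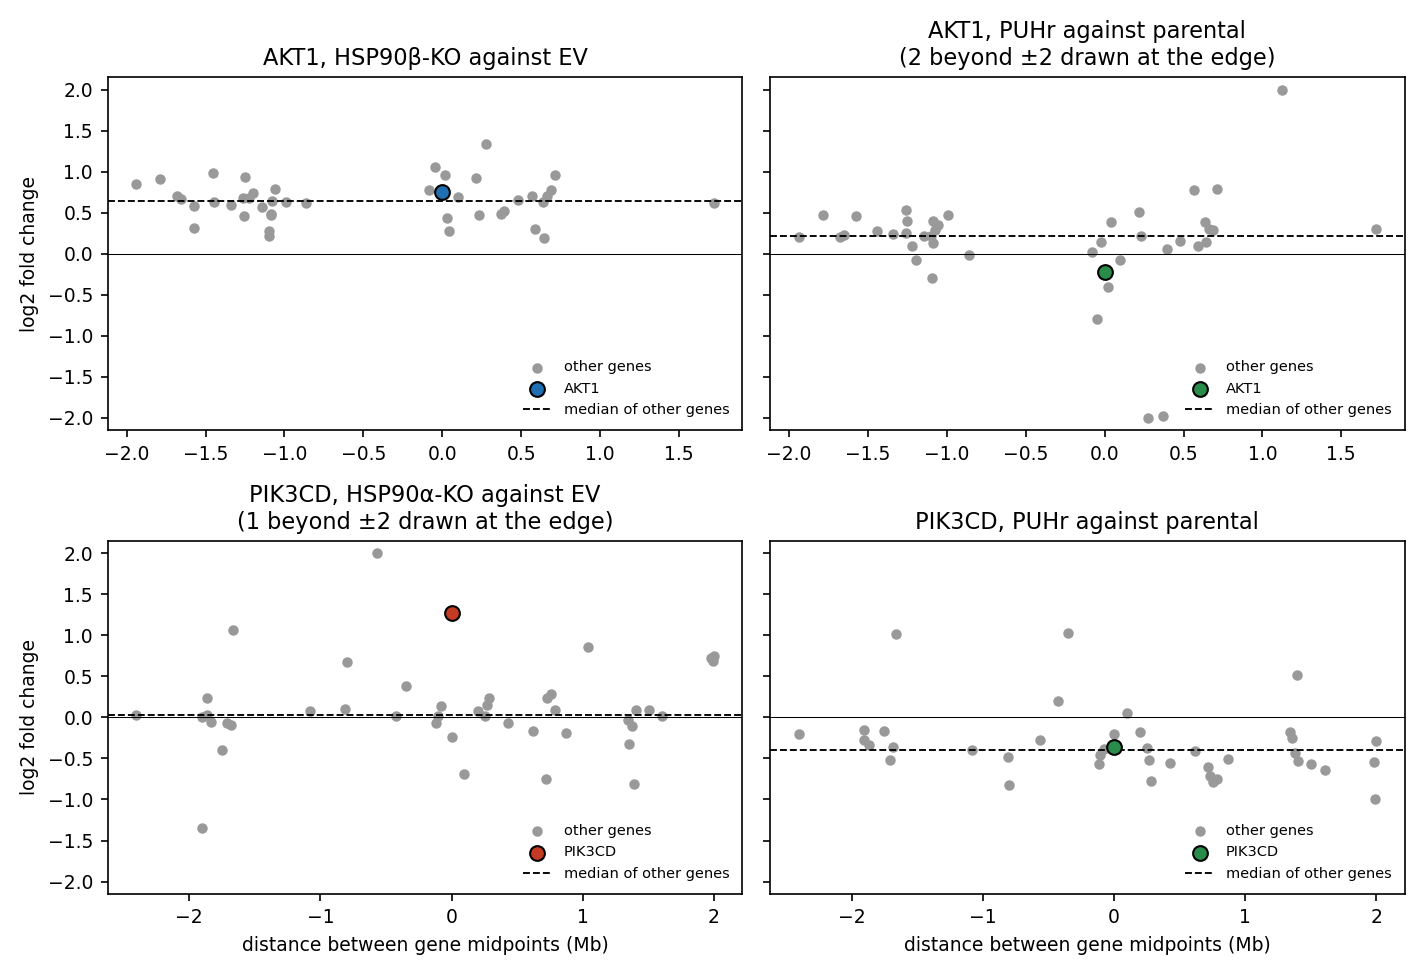
Log2 fold change (vertical axis) of the tested genes within 2 Mb of AKT1 or PIK3CD (grey) and of the gene itself (colour), by the distance between gene midpoints in Mb, with the median of the neighbours dashed. The limit of 2 Mb does not hold between midpoints, since CAMTA1 stands at -2.40 Mb from PIK3CD. AKT1 lies near its neighbours in HSP90β-KO (0.75 and 0.64) and PIK3CD in PUHr (-0.36 and -0.40). This does not hold for AKT1 in PUHr or PIK3CD in HSP90α-KO.

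For AKT1, PIK3CB and PIK3CD, the genes whose pattern over all 15 libraries was most like theirs lay on other chromosomes. Likeness was the root mean square difference of log2 CPM relative to the own control, over 11725 genes. TLCD1 on chromosome 17 (0.079), CPT1A on chromosome 11 (0.106) and SEC22A on chromosome 3 (0.111) were nearest to AKT1. TAFA2 on chromosome 12 (0.086), APH1B on chromosome 15 (0.098) and GSTO1 on chromosome 10 (0.109) were nearest to PIK3CD. Their log2 fold changes of 1.24 to 1.40 in HSP90α-KO follow from this choice. SLC38A2, BNIP2 and VPS13B were nearest to PIK3CB (0.041 to 0.052).

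The rest of the pathway was covered by 7 lists of 76 genes. In HSP90α-KO 24 of the 70 tested rose and 18 fell, in HSP90β-KO 9 and 14, and in PUHr 29 and 20 of 68, with medians of 0.00, -0.01 and 0.07. Over all tested genes 27.5% rose and 26.6% fell in HSP90α-KO, 17.2% each in HSP90β-KO, and 25.6% and 25.8% in PUHr. Among the phosphatases and inhibitors 2 of 10 rose and 3 fell in HSP90α-KO, 0 and 5 in HSP90β-KO, and 3 and 4 in PUHr (medians 0.00, -0.12 and -0.01). INPP5D, which encodes the PIP3 phosphatase SHIP1 of blood cells, was at 43.8, 49.9 and 44.1 CPM in HSP90α-KO, 7.75, 7.86 and 8.27 in EV and 4.34, 4.74 and 4.67 in HSP90β-KO. The 3 groups did not overlap. It rose by 2.51 in HSP90α-KO (standard error 0.078, adjusted p = 8.1e-20) and fell by 0.79 in HSP90β-KO (adjusted p = 5.9e-09). In PUHr it fell by 2.54 (standard error 0.12, adjusted p = 3.2e-10), from 9.17, 9.06 and 9.05 to 1.53, 1.34 and 1.65 CPM.

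INPP4B, which removes a phosphate from PI(3,4)P2, had 0 reads in all 3 HSP90α-KO libraries and 13 to 16 in EV. Taken against a floor of 3 reads per library it was at least 4.07-fold lower in HSP90α-KO. PIK3IP1, an inhibitor that binds p110, was at 2.343 CPM in HSP90α-KO and 4.873 in EV, a fall by 1.02 (adjusted p = 3e-06).

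Of the 9 receptor adaptors, 4 rose and 2 fell in HSP90α-KO, 2 and 3 in HSP90β-KO, and 6 and 2 in PUHr (medians 0.10, -0.05 and 0.38). IRS1, the docking protein of the insulin receptor, was at 0.8577 ± 0.18 CPM in HSP90α-KO and 9.239 ± 0.286 in EV (SD, n = 3), a fall by 3.32 (standard error 0.13, limma adjusted p = 6.4e-18). It rose by 0.75 in HSP90β-KO (adjusted p = 3.2e-05) and by 2.12 in PUHr (adjusted p = 2.8e-11). GAB1, an adaptor that binds p85, fell by 0.60 in HSP90α-KO (adjusted p = 6.5e-06) and rose by 0.76 in HSP90β-KO (adjusted p = 4.1e-07). CBL, an ubiquitin ligase phosphorylated by BCR-ABL1, rose from 106.4 ± 1.7 to 157.3 ± 8.19 CPM in HSP90α-KO (SD, n = 3), a log2 fold change of 0.56 (limma adjusted p = 1.3e-12).

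Among the other PI3 kinase subunits 3 of 6 rose and 2 fell in HSP90α-KO, 1 rose in HSP90β-KO, and 3 of 5 rose and 1 fell in PUHr (medians 0.11, 0.02 and 0.17). PIK3R5, the p101 partner of p110γ, was at 1.484 ± 0.223 CPM in HSP90α-KO and 0.2928 ± 0.176 in EV (SD, n = 3), a rise by 2.12 (adjusted p = 6.9e-06) that rests on 4 to 32 reads per library. PIK3C2B, a class II PI3 kinase, rose by 0.99 in PUHr (adjusted p = 1.3e-10), from 35.21 to 70.06 CPM, and by 0.32 and 0.24 in HSP90α-KO and HSP90β-KO. Of the 2 tested relatives of AKT, 1 rose and 1 fell in HSP90α-KO and in PUHr, and neither passed in HSP90β-KO. SGK1, a relative with shared substrates, rose by 0.91 in HSP90α-KO (adjusted p = 3.7e-14) and by 0.17 in PUHr (adjusted p = 0.0017). SGK3 fell by 0.47 (adjusted p = 8.8e-05) and by 0.59 (adjusted p = 0.0039), but the call in PUHr was lost without the filter on low values (adjusted p = 0.091).

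In the mTOR and translation arm 6 of 17 rose and 2 fell in HSP90α-KO, 1 and 2 in HSP90β-KO, and 4 and 6 in PUHr (medians 0.03, 0.03 and 0.03). The 3 calls in HSP90β-KO were not stable: TSC1 and EIF4B each lost theirs in 7 of 20 alternatives (adjusted p up to 0.15 and 0.33) and TSC2 in 3 (up to 0.06). Among these were fits without EV replicate 1 for all 3 genes, without HSP90β-KO replicate 2 or 3 for TSC1 and EIF4B, without EV replicate 2 for TSC1 and without EV replicate 3 for EIF4B. RPS6, a ribosomal protein phosphorylated downstream of mTOR, fell from 1027 ± 15 to 466.2 ± 7.65 CPM in PUHr (SD, n = 3), a fall by 1.14 (standard error 0.021, adjusted p = 1.5e-14). DDIT4, a stress-induced inhibitor of mTOR complex 1, rose from 140.6 to 194.6 CPM in HSP90α-KO (adjusted p = 9.8e-11). TSC1, which holds the mTOR activator RHEB in check, fell by 0.24 in HSP90α-KO (adjusted p = 0.00013) and rose by 0.46 in PUHr (adjusted p = 3.7e-08).

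The genes of 11 direct AKT substrates gave 3 rises and 4 falls in HSP90α-KO, 1 and 2 in HSP90β-KO, and 6 and 2 in PUHr (medians -0.08, -0.01 and 0.19). CDKN1A, the cell cycle inhibitor p21, rose by 1.39 in HSP90α-KO (adjusted p = 2.2e-11), by 1.14 in HSP90β-KO (adjusted p = 2.7e-09) and by 0.76 in PUHr (adjusted p = 5.3e-08). PFKFB2, a regulator of glycolysis, fell by 1.01 in PUHr (adjusted p = 1.3e-11), from 67.34 to 33.42 CPM. It rose by 0.24 in HSP90α-KO (adjusted p = 0.00042) and fell by 0.45 in HSP90β-KO (adjusted p = 1.3e-07). Of 15 genes known to be induced by FOXO factors, 5 rose and 4 fell in HSP90α-KO, 4 and 2 in HSP90β-KO, and of 14 tested in PUHr 6 rose and 4 fell (medians -0.01, 0.03 and 0.17). SESN3, a stress-induced regulator of mTOR, was at 0.5312 ± 0.214 CPM in EV, 5.942 ± 0.457 in HSP90α-KO and 5.25 ± 0.529 in HSP90β-KO (SD, n = 3). It rose by 3.33 (adjusted p = 3.3e-14) and 3.15 (adjusted p = 3.7e-13), and in PUHr by 2.31 (adjusted p = 3.5e-11). CCNG2, a cyclin tied to cell cycle arrest, rose by 1.23 in HSP90α-KO (adjusted p = 2.9e-13) and fell by 0.70 in HSP90β-KO (adjusted p = 3.9e-08). BCL6, a transcriptional repressor, fell by 0.95 in HSP90α-KO (adjusted p = 8.6e-11), from 18.69 to 9.606 CPM. TNFSF10, the death ligand TRAIL, fell by 0.57 in PUHr (adjusted p = 0.0031), a call that was lost without the filter on low values (adjusted p = 0.12). INSR, the insulin receptor gene, rose by 2.03 in PUHr (adjusted p = 1.6e-07). Folds of such low genes depend on the pseudocount. With 5 CPM added SESN3 was at 0.98 in HSP90α-KO and 0.89 in HSP90β-KO, IRS1 at -1.28 and PIK3R5 at 0.29 in HSP90α-KO, and INPP5D at -1.12 and INSR at 0.71 in PUHr. In the same way PIK3IP1 was at -0.43 and GAB1 at -0.36 in HSP90α-KO, CDKN1A at 0.77 in HSP90α-KO and 0.61 in HSP90β-KO, INPP5D at -0.44 and CCNG2 at -0.46 in HSP90β-KO, and SGK3 at -0.31 in HSP90α-KO and -0.24 in PUHr, where TNFSF10 was at -0.27. With this pseudocount these values all passed the test.

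**Figure D5:**
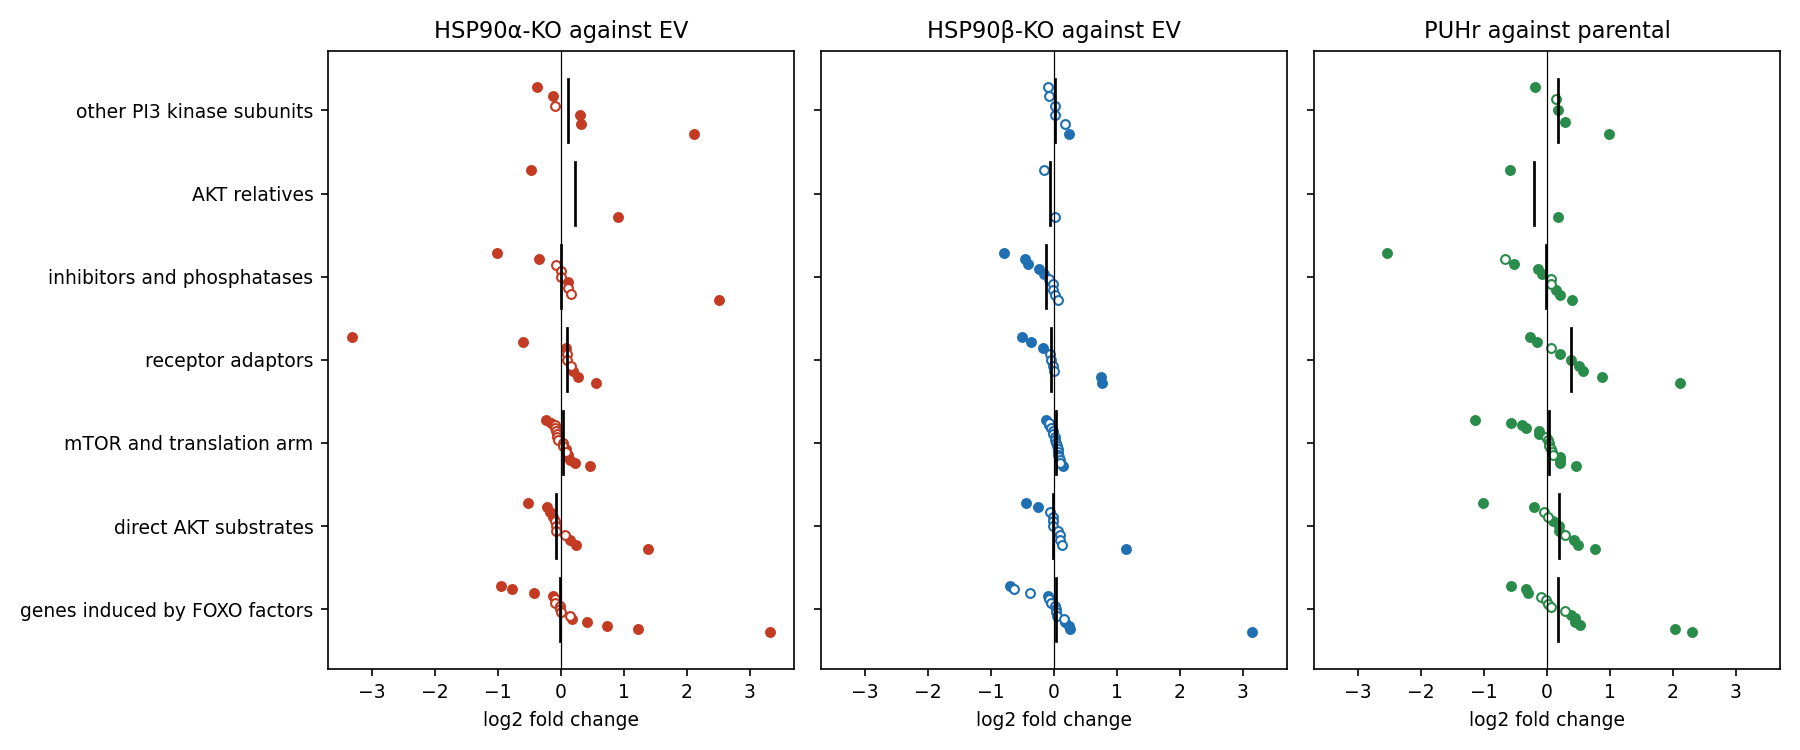
Log2 fold change (horizontal axis) of the tested genes of 7 pathway lists (rows) in HSP90α-KO and HSP90β-KO against EV and in PUHr against parental cells. Filled points passed an adjusted p of 0.05, and vertical bars are list medians. INPP4B in HSP90α-KO, where it had 0 reads, is left out of the points. Most genes lie near 0, and single genes such as IRS1 (-3.32) and SESN3 (3.33) in HSP90α-KO stand far out.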

How the data were processed

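The authors captured mRNA with a stranded kit, sequenced single 76-base reads on a NextSeq550, aligned them to GRCh38 with RNA STAR and counted them per gene with featureCounts. Tool versions and the annotation are not given in the sources used here. The deposited values are log2 CPM, which the authors made with edgeR from the counts with a prior count and their own scaling of the libraries, in 1 table per experiment. The tables were analysed separately. CPM and whole reads were recovered from the log2 values (largest deviation 0.0015 reads).

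Genes with a log2 CPM of at least -1 in at least 3 libraries were tested (17039 and 16503) in limma 3.58.1 (R 4.3.3). Each table had its own linear model, with moderated variances that followed mean intensity and Benjamini-Hochberg adjustment. The steps were also run on simulated counts, with the same dispersion for every gene and changes planted only in genes with many reads. The outcome of that run is not reported here. Rows without a gene identifier, 0.027% to 0.036% of reads, were left out. Positions and lengths come from GENCODE, and start regions from RefSeq.

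The members and gene lists were chosen with earlier results of these data known. Named genes were all members, INPP5D, the targeted genes, up to 3 genes per list and comparison with the largest called change and separated libraries, and the 3 genes most like each member with a log2 fold change of at least 0.5. Replicates of a group correlated with r of at least 0.993 across genes. Alternatives covered the filter, the pseudocount (1 or 5 CPM), normalization, the variance model, the libraries fitted, a replicate block and each library left out, and, chosen after seeing the data, voom and scaling to the total reads. Other genes that were looked at are not reported here. Intervals cover the spread between libraries, and floors cover counting error only.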

Additional observations from a re-analysis of the deposited data

Results flagged for a closer look

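The effects of the knockouts against the same EV libraries differed for 7 of the 8 genes by the direct test of HSP90α-KO against HSP90β-KO in limma. The log2 difference was 1.45 for PIK3CD, 0.61 for PIK3CB, 0.36 for PIK3CA, 0.18 for PIK3CG, -0.16 for AKT2, -0.55 for PIK3R1 and -0.69 for AKT1. In each of the 7 genes the 3 libraries of the knockouts did not overlap, and all 7 calls held with any library left out in turn. At the same threshold 30.1% of all genes were called higher and 29.8% lower, so the number of calls does not set these genes apart.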

How the results depend on the processing

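Of 32 log2 fold changes of the 8 genes (4 comparisons), 24 kept their direction and their side of the threshold under every alternative, and 588 of 608 fits did so. The count of members called was 5 to 6 in HSP90α-KO, 3 to 4 in HSP90β-KO, 7 to 8 between the knockouts and 7 in PUHr. With a replicate block the counts were 6, 4, 7 and 7. The numbers of replicates were not taken as pairs: deviations from the group means correlated by -0.048 to 0.045 across genes between libraries of 1 number. Under the block TSC1 in HSP90β-KO lost its call (adjusted p = 0.053), 1 of 7 alternatives in which it did. Without the filter on low values SGK3 and TNFSF10 in PUHr lost theirs (adjusted p = 0.091 and 0.12). Without the intensity trend AKT2 in HSP90α-KO (adjusted p = 0.12) and PIK3CB in HSP90β-KO (0.089) lost theirs, and AKT2 also in a fit of the 6 libraries compared alone. With libraries scaled to their total reads, medians over all genes moved by -0.066 to 0.058. AKT2 in HSP90β-KO (0.10) and PDPK1 between the knockouts (-0.12) then gained a call, PIK3CB in HSP90β-KO (-0.08) lost its call, and PDPK1 in HSP90α-KO (-0.01) and PIK3CG in HSP90β-KO (0.01) changed sign. PIK3CA in HSP90β-KO went to -0.01 with median centring and ranged from -0.02 (without EV replicate 2) to 0.06 with 1 library left out, and PDPK1 in PUHr went to -0.01 with median centring. With quantile normalization HSP90AA1 in PUHr went from -0.13 to 0.08 and HSP90AB1 from -0.24 to 0.05. The cause was not tested. The scaling to total reads, a voom fit of the recovered reads and the length of all annotated exons for shares were added after seeing the data. Genes with few reads, such as PIK3R5 and INPP4B, are limited by depth.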
